A study of Homo sapiens with 3 samples.

Results

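The genes described here encode subunits of the Polycomb repressive complexes PRC2 and PRC1, of the BAF chromatin remodeller, of the LSD1-CoREST demethylase complex and of the NuRD deacetylase complex. They were chosen by name, 47 in all, and their FPKM values were read from the loci whose gene name equals the symbol or holds it in a comma-joined name. All 47 were found among the 22714 gene names of the series. The 3 RNA-seq libraries came from TC32, an established Ewing sarcoma cell line. One library was from cells with knockdown of the fusion oncoprotein EWS-FLI1, 1 from cells treated with 3 µM of YK-4-279 for 15 hours, and 1 from control cells labelled WT. YK-4-279 is a compound known as an inhibitor of EWS-FLI1 that interferes with its partner, an RNA helicase, and its vehicle was DMSO. The sources used here do not give the hairpin, the length of the knockdown or what the control cells received. With 1 library per group no value has a replicate check and no test was possible, so the comparisons below are between libraries of 1 cell line.

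PRC2 methylates histone H3 on lysine 27 and PRC1 ubiquitinates histone H2A, and both keep developmental genes silent. BAF slides and evicts nucleosomes with the energy of ATP and opposes Polycomb at many genes. NuRD couples a remodelling ATPase to histone deacetylases, and LSD1-CoREST removes methyl groups from histone H3 lysine 4. In Ewing sarcoma the fusion is known to recruit BAF to GGAA repeats, where it opens enhancers, and to work with NuRD and LSD1 at genes that it represses, while EZH2, the catalytic subunit of PRC2, is a known target of the fusion.

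Deposited FPKM differed in overall scale between the libraries, so levels are given as scaled FPKM, which is FPKM multiplied by 1 factor per library that sets the median compared gene equal. A relative log2 ratio is a difference of log2(scaled FPKM + 1), which understates the change of scarce genes. Genes with a mean deposited FPKM of at least 1 over the 3 libraries were compared, 9939 of all names and 42 of the 47 members. A gene is called higher or lower where its ratio is at least 1 in size, which is 2-fold on that scale. Standard errors (SE) cover counting error only, from estimated fragments, and for the compared members ran between 0.01 and 0.11.

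The promoters of 4 of the members past that threshold after knockdown are printed to show the sequence next to their start sites. Each is the RefSeq window on GRCh38.p14 of 250 bases before to 50 bases after the start, read 5′ to 3′ along the gene, with GGAA or its complement TTCC, the core bound by ETS factors, in capitals. MTA1 and SMARCA2 were higher after knockdown, and EED and HDAC1 were lower, HDAC1 only just at -1.005. Set against genes of like level, as described below, EED at -0.46 and HDAC1 at -0.01 came within the threshold. The windows lie at chr14:105419577-105419876 on the plus strand for MTA1, chr9:2015097-2015396 on the plus strand for SMARCA2, chr11:86244503-86244802 on the plus strand for EED and chr1:32291833-32292132 on the plus strand for HDAC1.
MTA1: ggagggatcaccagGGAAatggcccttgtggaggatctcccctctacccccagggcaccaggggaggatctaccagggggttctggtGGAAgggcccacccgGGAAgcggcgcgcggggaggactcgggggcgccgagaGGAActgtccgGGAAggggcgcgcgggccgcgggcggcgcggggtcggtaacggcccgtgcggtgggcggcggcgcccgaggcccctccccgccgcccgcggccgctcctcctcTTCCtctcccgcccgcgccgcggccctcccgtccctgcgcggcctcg
SMARCA2: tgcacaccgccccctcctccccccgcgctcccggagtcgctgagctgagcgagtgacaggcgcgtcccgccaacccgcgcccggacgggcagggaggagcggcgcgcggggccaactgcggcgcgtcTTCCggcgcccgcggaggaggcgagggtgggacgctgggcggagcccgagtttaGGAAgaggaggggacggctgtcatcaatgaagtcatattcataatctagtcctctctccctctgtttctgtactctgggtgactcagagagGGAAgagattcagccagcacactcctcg
EED: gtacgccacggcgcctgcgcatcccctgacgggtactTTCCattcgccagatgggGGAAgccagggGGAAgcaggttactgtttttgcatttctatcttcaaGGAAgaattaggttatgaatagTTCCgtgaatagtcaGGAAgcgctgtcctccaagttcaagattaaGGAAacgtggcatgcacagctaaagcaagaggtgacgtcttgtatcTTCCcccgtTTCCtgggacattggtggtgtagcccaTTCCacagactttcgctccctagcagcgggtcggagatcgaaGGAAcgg
HDAC1: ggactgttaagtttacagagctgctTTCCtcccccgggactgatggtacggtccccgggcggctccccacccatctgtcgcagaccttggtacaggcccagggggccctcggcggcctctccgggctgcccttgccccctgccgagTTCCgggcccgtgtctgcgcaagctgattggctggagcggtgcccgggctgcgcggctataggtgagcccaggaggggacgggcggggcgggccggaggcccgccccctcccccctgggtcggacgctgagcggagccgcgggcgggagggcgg
The core GGAA stood 6 times in the MTA1 window, 3 times in that of SMARCA2, 11 times in that of EED and 2 times in that of HDAC1, counted on both strands. That core was present in 39 of the 41 member promoters with a full window, and in 95.5% of all 35116 such windows in the table. The tandem GGAAGGAA was in 0 of the 41, against 3.67% of all windows, and the ETS site CCGGAAGT was in 2, those of GATAD2A and MTA2, against 4.14%. Both of the longer motifs contain the core, and both strands were searched.

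The transcripts of the fusion and the identity of the cells were checked first. FLI1, which supplies the DNA-binding part of the fusion, had 2.13 scaled FPKM in the knockdown library, 17.6 with YK-4-279 and 21.4 in the control. The library labelled as the knockdown thus had the lowest FLI1. EWSR1, the other partner gene, had 58.5 scaled FPKM after knockdown, 76.9 with YK-4-279 and 80.2 in the control. Its relative log2 ratios were -0.45 after knockdown and -0.06 with YK-4-279. Set against genes of like level, as described below, FLI1 stood at -2.52 and EWSR1 at 0.55 after knockdown. Of 6 Ewing sarcoma markers, 5 were above 0 in every library, and CD99, with 2 loci of that name, was listed at 0 in all 3. How multiply mapped reads were handled is not stated, so absence of CD99 from the cells is not read from these values. The summed level of the 6 markers was 51.2 scaled FPKM after knockdown, 248 with YK-4-279 and 261 in the control. STEAP1 alone had 30.8 after knockdown, 148 with YK-4-279 and 177 in the control. The relative log2 ratios after knockdown were -2.76 for NR0B1, -2.49 for STEAP1, -2.32 for CCND1, -1.12 for LIPI and 0.43 for NKX2-2. With YK-4-279 these 5 lay between -0.70 for CCND1 and 0.55 for LIPI. All 4 fibroblast markers were above 0 in every library, with summed levels of 55.1 scaled FPKM after knockdown, 23.3 with YK-4-279 and 26.2 in the control. FAP, PDGFRB and LUM were higher after knockdown, at relative log2 ratios of 1.86, 1.44 and 1.34, and DCN was lower at -1.86, and the part of these genes in the values below was not tested. The 2 endothelial markers summed to at most 0.24 scaled FPKM in any library, and the 2 immune markers to at most 0.62. In such bulk RNA, fewer cells of a type and less RNA per cell cannot be told apart.

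After knockdown of EWS-FLI1, 5 of the 42 compared members were higher, 3 were lower and 34 were neither. The 5 were MTA1 and SMARCA2, followed by KDM1A, SMARCD3 and RING1, and the 3 were ACTL6A, EED and HDAC1. The higher members are 11.9% of those compared, against 17.3% of all compared genes, and the lower are 7.14% against 17.0%, so a smaller share of the members than of all genes passed the threshold. The median member stood at 0.32, against 0.01 for all compared genes. With YK-4-279, MTA1 was the 1 member called higher (2.38%, against 2.41% of all compared genes) and 0 were lower (against 1.69%), and the median was 0.02 against 0.03. Within 0.5 of the median gene lay 28.6% of the compared members after knockdown, against 35.3% of all genes, and 81.0% with YK-4-279 against 79.5%. Both comparisons use the same control library.

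**Figure D1:**
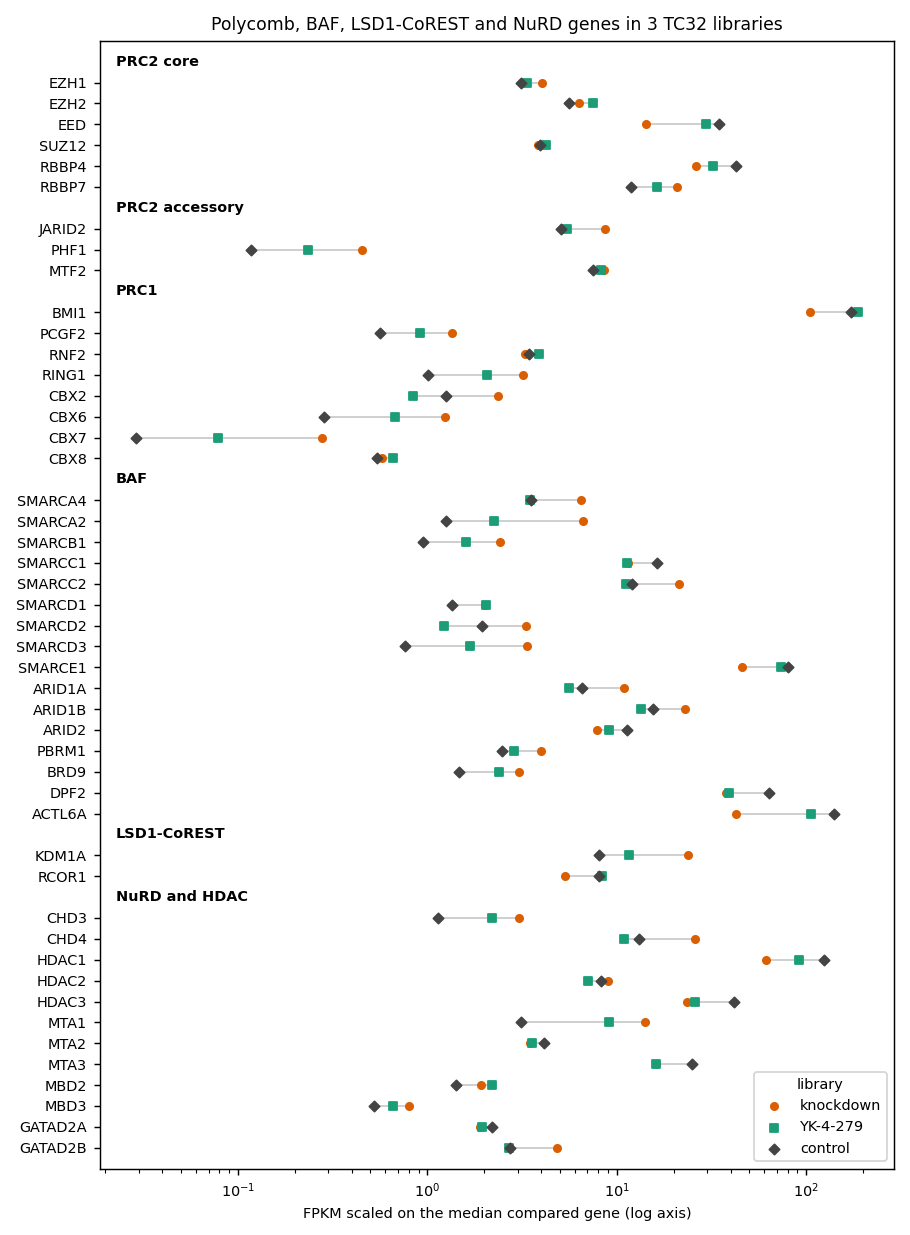
Scaled FPKM (log axis) of the 47 members in the knockdown, YK-4-279 and control libraries, by complex, with 1 point per library and a grey line over their range. MTA1 stood at 14.2 after knockdown, 9.11 with YK-4-279 and 3.13 in the control, and ACTL6A at 42.5 after knockdown, 107 with YK-4-279 and 140 in the control.

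The core of PRC2 is made of the methyltransferases EZH1 and EZH2, the scaffold SUZ12, the H3K27me3-binding subunit EED and the histone-binding proteins RBBP4 and RBBP7. EED was the 1 of these 6 past the threshold, with 14.3 scaled FPKM in the knockdown library, 29.6 with YK-4-279 and 34.9 in the control, and its relative log2 ratio was -1.23 (SE 0.04) after knockdown and -0.23 (SE 0.04) with YK-4-279. Only the knockdown library was low. EZH2 had 6.31 scaled FPKM after knockdown, 7.54 with YK-4-279 and 5.63 in the control, with ratios of 0.14 (SE 0.07) after knockdown and 0.37 (SE 0.07) with YK-4-279. EZH1, its less active paralogue, had 4.02 after knockdown, 3.35 with YK-4-279 and 3.14 in the control, with ratios of 0.28 after knockdown and 0.07 with YK-4-279. SUZ12 had 3.86 scaled FPKM after knockdown, 4.25 with YK-4-279 and 3.95 in the control, and its ratios were -0.03 after knockdown and 0.08 with YK-4-279. The catalytic and scaffold subunits therefore lay within 0.5 log2 units of the control in both libraries, relative to the median gene. In deposited FPKM EZH2 had 4.38 after knockdown, 3.56 with YK-4-279 and 17.3 in the control. RBBP4 had 26.3 scaled FPKM after knockdown, 32.4 with YK-4-279 and 42.5 in the control (-0.67 after knockdown and -0.38 with YK-4-279) and RBBP7 had 20.8 after knockdown, 16.4 with YK-4-279 and 11.9 in the control (0.76 after knockdown and 0.43 with YK-4-279). These 2 paralogues, both of which also serve NuRD, were thus ordered in opposite ways over the 3 libraries.

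Among the accessory subunits that direct PRC2 to its targets, JARID2 had 8.69 scaled FPKM in the knockdown library, 5.45 with YK-4-279 and 5.09 in the control (0.67, SE 0.04, after knockdown and 0.08, SE 0.05, with YK-4-279). MTF2, a Polycomb-like protein that binds CpG islands, had 8.53 after knockdown, 8.32 with YK-4-279 and 7.50 in the control (0.16 after knockdown and 0.13 with YK-4-279). PHF1, its paralogue, summed over 2 loci, had a mean deposited FPKM under 1 and was not compared. It had 0.45 scaled FPKM after knockdown, 0.24 with YK-4-279 and 0.12 in the control. Both compared genes of these 3 lay within the threshold.

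The promoters of EZH2 and SUZ12 are shown because E2F factors, which drive S phase genes, are known to act on PRC2 genes. The windows lie at chr7:148884242-148884541 on the minus strand for EZH2 and chr17:31936757-31937056 on the plus strand for SUZ12, on GRCh38.p14, and the E2F-like motif TTTNNCGC is in capitals.
EZH2: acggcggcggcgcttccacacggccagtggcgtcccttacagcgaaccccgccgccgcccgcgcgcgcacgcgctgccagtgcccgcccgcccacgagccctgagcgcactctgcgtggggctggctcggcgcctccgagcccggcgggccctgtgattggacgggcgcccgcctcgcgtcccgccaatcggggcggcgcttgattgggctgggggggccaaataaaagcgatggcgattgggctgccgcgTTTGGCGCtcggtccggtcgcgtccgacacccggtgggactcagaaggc
SUZ12: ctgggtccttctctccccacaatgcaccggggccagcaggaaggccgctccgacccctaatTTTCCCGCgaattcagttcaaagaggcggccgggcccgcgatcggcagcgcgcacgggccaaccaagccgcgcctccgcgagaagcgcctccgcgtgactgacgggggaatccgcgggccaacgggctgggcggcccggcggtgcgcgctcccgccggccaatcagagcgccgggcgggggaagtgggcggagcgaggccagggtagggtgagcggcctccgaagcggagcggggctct
That motif, searched on both strands, was in 6 of the 41 member promoters with a full window (14.6%), against 6.89% of all windows. The 6 were EZH2, EZH1, SUZ12, RBBP7 and MTF2 of PRC2, and SMARCD1 of BAF. Their relative log2 ratios after knockdown lay between -0.03 for SUZ12 and 0.76 for RBBP7. The CCAAT box was in 41.5% of the member windows and 34.6% of all, with 4 copies in that of EZH2. The cell cycle element TTTGAA was in 4.88% of the member windows against 15.2%, and TATAAA in 2.44% against 11.5%.

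PRC1 pairs a RING1 ubiquitin ligase with a PCGF protein and, in its canonical form, a CBX protein that reads the mark of PRC2. RING1 was the 1 compared PRC1 member past the threshold after knockdown. It had 3.19 scaled FPKM there, 2.06 with YK-4-279 and 1.01 in the control (1.06, SE 0.11, after knockdown and 0.61, SE 0.11, with YK-4-279). These values are a sum over 6 loci named RING1, and how reads were shared among those loci is not stated. RNF2, the other ligase, had 3.30 after knockdown, 3.89 with YK-4-279 and 3.45 in the control (-0.05 after knockdown and 0.14 with YK-4-279). The 2 ligases were therefore about equal in the knockdown library, while RNF2 was the more abundant in the control. BMI1, a PCGF protein, was measured in 1 locus joined with COMMD3 and their read-through transcript, which had 105 scaled FPKM after knockdown, 189 with YK-4-279 and 172 in the control (-0.70 after knockdown and 0.13 with YK-4-279), so its own level cannot be separated. PCGF2, the paralogue of BMI1, had 1.36 after knockdown, 0.92 with YK-4-279 and 0.56 in the control (0.59 after knockdown and 0.30 with YK-4-279).

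The CBX readers were scarce. CBX2 had 2.38 scaled FPKM in the knockdown library, 0.84 with YK-4-279 and 1.26 in the control. Its ratios of 0.58 after knockdown and -0.30 with YK-4-279 had opposite signs. Set against genes of like level, as described below, CBX2 stood at 0.03 after knockdown and -0.48 with YK-4-279. With length and GC content fitted too it stood at -0.22 and -0.46, so the opposite signs did not hold there. CBX6, CBX7 and CBX8 fell under the filter on low values and were not compared. CBX6 had 1.25 scaled FPKM after knockdown, 0.68 with YK-4-279 and 0.29 in the control. The lowest of all members, CBX7, had 0.28 scaled FPKM after knockdown, 0.08 with YK-4-279 and 0.03 in the control. CBX8 was nearly level, with 0.58 scaled FPKM after knockdown, 0.66 with YK-4-279 and 0.54 in the control. CBX7 rested on about 6 fragments in the control, and nothing is drawn from it.

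BAF is built around 1 of 2 ATPases, SMARCA4 or SMARCA2. SMARCA2 had 6.68 scaled FPKM in the knockdown library, 2.24 with YK-4-279 and 1.25 in the control, with relative log2 ratios of 1.77 (SE 0.05) after knockdown and 0.53 (SE 0.06) with YK-4-279. In deposited FPKM these were 4.64 after knockdown, 1.06 with YK-4-279 and 3.85 in the control, so after knockdown it was above the control before scaling too. SMARCA4 had 6.48 scaled FPKM after knockdown, 3.49 with YK-4-279 and 3.52 in the control, with ratios of 0.73 (SE 0.05) after knockdown and -0.01 (SE 0.05) with YK-4-279. The 2 ATPases were about equally abundant in the knockdown library, whereas SMARCA4 was 1.56 times SMARCA2 with YK-4-279 and 2.81 times in the control.

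Both scaffold proteins and the core subunits of BAF lay on either side of the control. SMARCC2 had 21.3 scaled FPKM after knockdown, 11.2 with YK-4-279 and 12.1 in the control (0.77 after knockdown and -0.09 with YK-4-279), and SMARCC1 had 11.4 after knockdown, 11.3 with YK-4-279 and 16.3 in the control (-0.47 after knockdown and -0.49 with YK-4-279). SMARCB1, the core subunit lost in rhabdoid tumours, had 2.41 after knockdown, 1.59 with YK-4-279 and 0.95 in the control (0.81, SE 0.06, after knockdown and 0.41, SE 0.07, with YK-4-279). SMARCE1, a DNA-binding core subunit, had 45.7 after knockdown, 73.4 with YK-4-279 and 80.3 in the control (-0.80 after knockdown and -0.13 with YK-4-279). Of the BAF60 proteins, which link the complex to transcription factors, SMARCD3 was higher after knockdown, at 3.35 scaled FPKM after knockdown, 1.69 with YK-4-279 and 0.76 in the control (1.31, SE 0.10, after knockdown and 0.61, SE 0.11, with YK-4-279). SMARCD3, known from heart and muscle, was the least abundant of the 3 BAF60 genes in the control and close to SMARCD2 in the knockdown library. SMARCD1 stood at 0.36 after knockdown and 0.37 with YK-4-279, and SMARCD2 at 0.56 after knockdown and -0.41 with YK-4-279.

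ACTL6A, the actin-related subunit of BAF in dividing and progenitor cells, was the lowest of the 42 compared members after knockdown. It had 42.5 scaled FPKM there, 107 with YK-4-279 and 140 in the control (-1.70, SE 0.03, after knockdown and -0.39, SE 0.02, with YK-4-279). Its neuronal counterpart ACTL6B was at most 0.02 deposited FPKM in any library. The members specific to a BAF subtype lay within the threshold on the relative scale, before any correction for level. ARID1A and ARID1B, which define canonical BAF, stood at 0.65 and 0.53 after knockdown and at -0.20 and -0.19 with YK-4-279. ARID2 and PBRM1, of the PBAF form, stood at -0.47 and 0.51 after knockdown, and BRD9, of the non-canonical form, at 0.71. DPF2, a histone reader of canonical BAF, had 38.0 scaled FPKM after knockdown, 39.1 with YK-4-279 and 63.5 in the control, and its -0.68 (SE 0.03) with YK-4-279 was the lowest value of any compared member in that library.

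KDM1A encodes LSD1 and RCOR1 encodes CoREST, the partner that lets LSD1 act on nucleosomes. KDM1A, in 1 locus joined with the microRNA gene MIR3115, had 23.8 scaled FPKM in the knockdown library, 11.6 with YK-4-279 and 8.08 in the control (1.45, SE 0.04, after knockdown and 0.47, SE 0.05, with YK-4-279). RCOR1 had 5.34 after knockdown, 8.35 with YK-4-279 and 8.09 in the control (-0.52, SE 0.04, after knockdown and 0.04, SE 0.04, with YK-4-279). The enzyme and its partner thus lay on opposite sides of the control after knockdown.

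In NuRD, the MTA proteins hold the deacetylases, and MTA1 is the member best known from invasive tumours. MTA1 had the highest relative log2 ratio of the 42 compared members in both the knockdown and the YK-4-279 library, with 14.2 scaled FPKM after knockdown, 9.11 with YK-4-279 and 3.13 in the control. The ratio was 1.88 (SE 0.06) after knockdown and 1.29 (SE 0.07) with YK-4-279, from about 1717 estimated fragments after knockdown, 985 with YK-4-279 and 439 in the control. In deposited FPKM MTA1 stood at 9.86 after knockdown, 4.30 with YK-4-279 and 9.63 in the control, so on that scale it was level with the control after knockdown and lower with YK-4-279. MTA2, in 1 locus joined with TUT1, had 3.48 scaled FPKM after knockdown, 3.59 with YK-4-279 and 4.13 in the control (-0.19 after knockdown and -0.16 with YK-4-279), and MTA3 had 16.2 after knockdown, 16.1 with YK-4-279 and 25.1 in the control (-0.60 after knockdown and -0.60 with YK-4-279). Of the 3 MTA genes, 1 was therefore above and 2 below the control in both libraries.

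Of the NuRD ATPases, CHD4, the main ATPase, had 25.8 scaled FPKM after knockdown, 10.9 with YK-4-279 and 13.2 in the control (0.92, SE 0.03, after knockdown and -0.25, SE 0.03, with YK-4-279). CHD3, its paralogue, had 3.06 after knockdown, 2.19 with YK-4-279 and 1.14 in the control (0.92, SE 0.05, after knockdown and 0.58, SE 0.06, with YK-4-279). HDAC1, a catalytic deacetylase of NuRD and CoREST, had 61.4 scaled FPKM after knockdown, 91.4 with YK-4-279 and 124 in the control, and its -1.005 (SE 0.02) after knockdown lay at the threshold. Its paralogue HDAC2 had 8.96 after knockdown, 7.10 with YK-4-279 and 8.23 in the control (0.11 after knockdown and -0.19 with YK-4-279). HDAC3, which belongs to the NCoR and SMRT complexes, had 23.6 after knockdown, 25.8 with YK-4-279 and 41.7 in the control (-0.79 after knockdown and -0.67 with YK-4-279). The linker proteins GATAD2A and GATAD2B stood at -0.14 and 0.64 after knockdown and at -0.12 and -0.01 with YK-4-279. MBD2, which binds methylated DNA, stood at 0.27 after knockdown and 0.39 with YK-4-279, and MBD3 was too scarce to be compared, with 0.80 scaled FPKM after knockdown, 0.66 with YK-4-279 and 0.52 in the control.

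**Figure D2:**
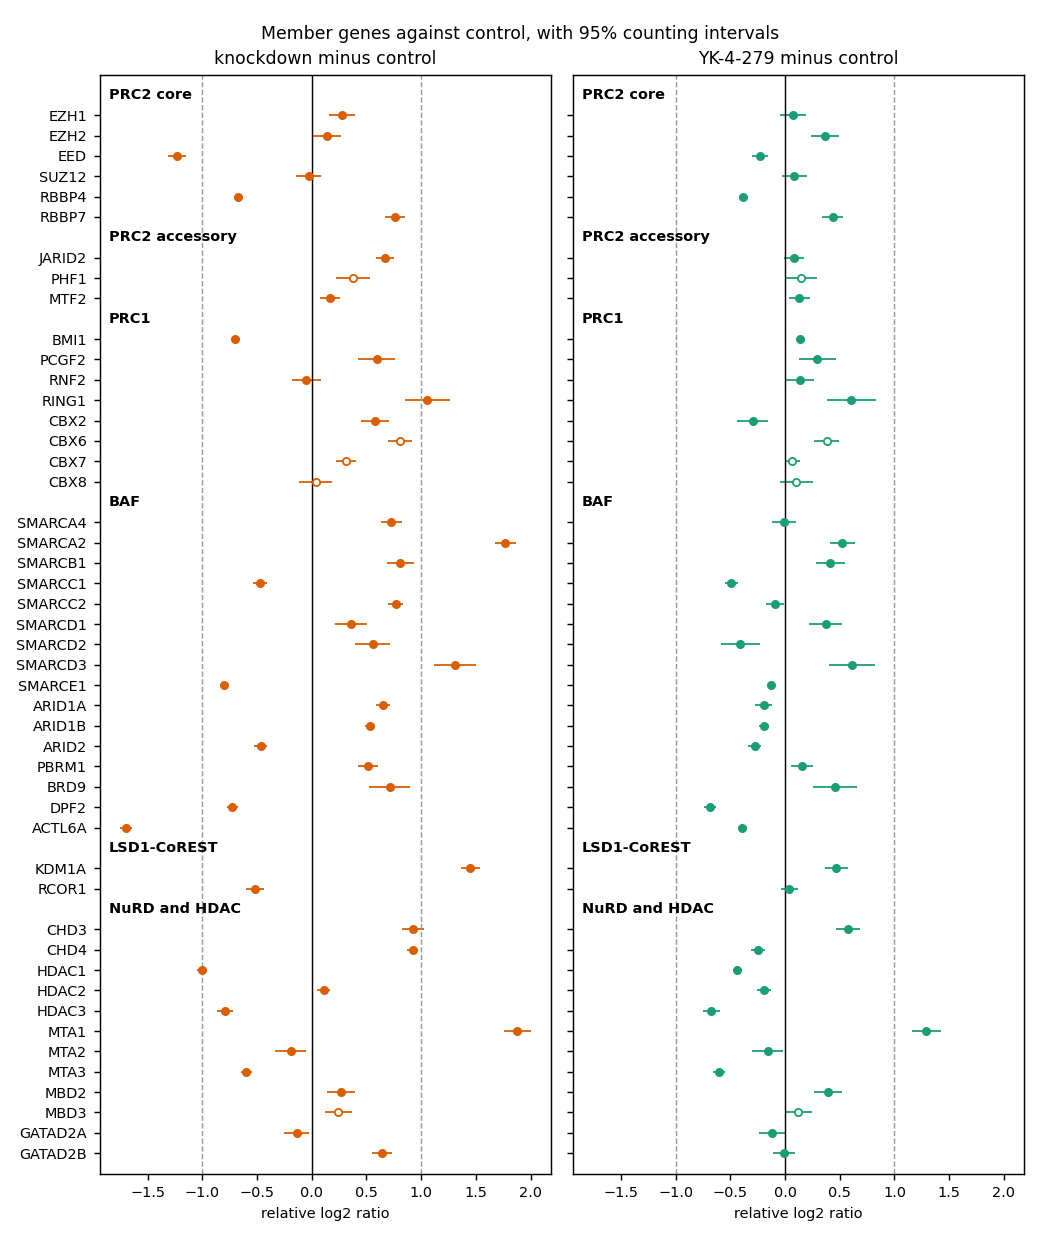
Relative log2 ratio of each member, knockdown minus control (left) and YK-4-279 minus control (right), with 95% intervals of counting error as horizontal bars, dashed lines at the threshold of 1 and open points for the 5 members not compared. After knockdown the compared members ran between -1.70 for ACTL6A and 1.88 for MTA1, and with YK-4-279 between -0.68 for DPF2 and 1.29 for MTA1.

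The value of a member after knockdown went with its abundance, as it did for genes at large. Over the 42 compared members the relative log2 ratio and the mean log2 level had a Pearson correlation of -0.64 (Spearman -0.56), against -0.40 (-0.48) over 9283 compared genes with a transcript length, described without a test because the genes share libraries. All 3 members called lower were among the abundant ones, and among the most abundant of 5 equal classes of all genes the median was -0.89, against 0.47 in the least abundant class. Set against the running median of genes of like level, HDAC1 stood at -0.01, EED at -0.46 and ACTL6A at -0.70, so 0 members were lower, against 9.91% of all compared genes on that scale. SMARCD3 and RING1 stood at 0.79 and 0.52 and also came under the threshold. KDM1A, MTA1 and SMARCA2 stayed above it, at 1.91, 2.07 and 1.31. CHD4 at 1.39, RBBP7 at 1.27, SMARCC2 at 1.24 and ARID1B at 1.15 passed it on that scale, where 7 members were higher (16.7%, against 14.7% of all genes). With YK-4-279 the correction left MTA1 at 1.34 (2.38%, against 2.32% of all genes) and 0 members lower (against 1.66%).

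**Figure D3:**
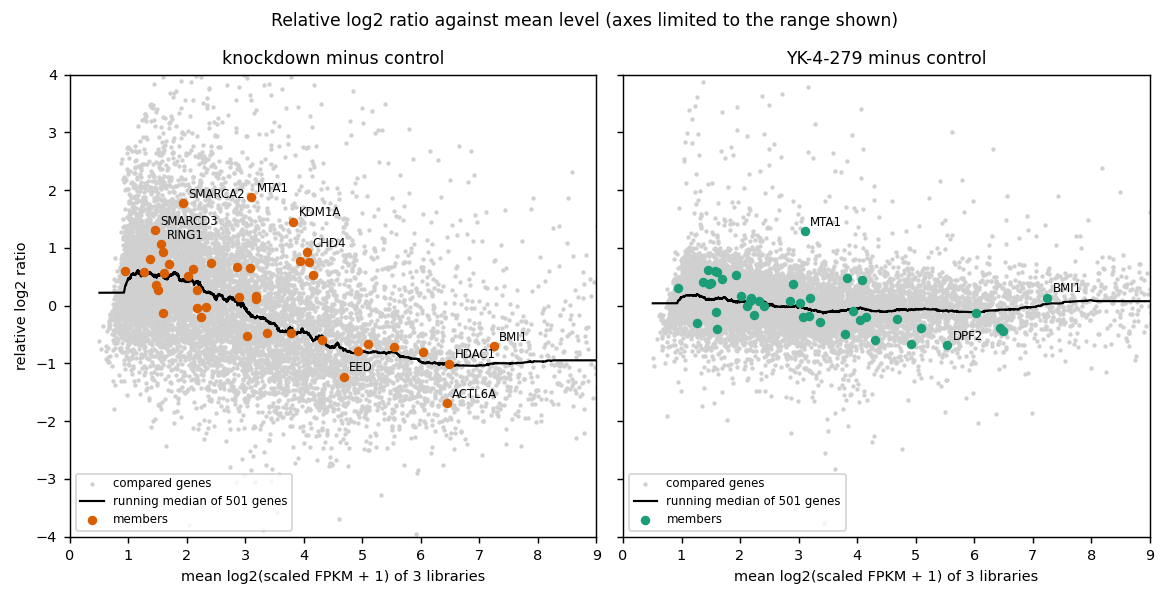
Relative log2 ratio against mean log2(scaled FPKM + 1) of the 3 libraries for all compared genes (grey), with their running median (black) and the 42 compared members (coloured), knockdown left and YK-4-279 right. HDAC1 lies on the falling line at -1.005 after knockdown, and MTA1 lies above the line in both panels, at 1.88 and 1.29. Genes beyond the drawn range are not shown.

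Transcript length and base composition also differed along this ordering. After knockdown the median of all compared genes was -0.44 in the class of 5 with the shortest transcripts and 0.38 in that with the longest. Over the 42 members the correlation with log2 transcript length was 0.11, and with GC content it was 0.46, against 0.14 and 0.12 over all genes. When level, length and GC content were fitted together, MTA1, KDM1A, SMARCA2 and RBBP7 stood at 1.70, 1.53, 1.14 and 1.14 after knockdown, and GATAD2A at -1.01. CHD4, SMARCC2 and ARID1B then stood at 0.88, 0.84 and 0.46. On that scale 4 members were higher (9.52%, against 12.7% of all genes) and 1 lower (2.38%, against 12.2%). The median of the 16 BAF genes, 0.54 after knockdown against 0.01 for all compared genes, was -0.02 in that fit, where that of all genes was -0.10. With the filter at a mean of 5 FPKM, the 9 BAF genes left and all genes both had a median of -0.47, so no direction is given for the complex.

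Many of these subunits come as paralogues that replace each other in the complex, and their ratio within 1 library does not depend on the scaling between libraries. Of 14 pairs of paralogues, 10 differed by at least 1 log2 unit in the knockdown library and 2 with YK-4-279. No pseudocount was used for these ratios. After knockdown 17.3% of all compared genes were called higher and 17.0% lower. The share of pairs of other genes that moved as far was not computed, so the counts are not read as a trait of the complexes. All 12 of those changes were towards the second gene of the pair as named here. The first gene was the more abundant in the control in 11 of the 14 pairs, so nothing is drawn from that shared direction. The MTA2 locus was 0.25 times MTA1 after knockdown, 0.39 times with YK-4-279 and 1.32 times in the control, a log2 change of -2.43 (SE 0.12) after knockdown and -1.74 (SE 0.12) with YK-4-279. SMARCA4 was 0.97 times SMARCA2 after knockdown, 1.56 times with YK-4-279 and 2.81 times in the control (-1.53, SE 0.10, after knockdown and -0.85, SE 0.11, with YK-4-279). RNF2 was 1.03 times RING1 (6 loci summed) after knockdown, 1.89 times with YK-4-279 and 3.41 times in the control. The log2 change was -1.72 (SE 0.20) after knockdown and -0.85 (SE 0.22) with YK-4-279. These pairs thus ran in 1 order, knockdown, then YK-4-279, then control.

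RBBP4 was 1.26 times RBBP7 after knockdown, 1.97 times with YK-4-279 and 3.57 times in the control (-1.50, SE 0.05, after knockdown and -0.86, SE 0.06, with YK-4-279). SMARCC1 was 0.54 times SMARCC2 after knockdown, 1.00 times with YK-4-279 and 1.35 times in the control (-1.32 after knockdown and -0.42 with YK-4-279), and SMARCD1 was 0.60 times SMARCD3 after knockdown, 1.21 times with YK-4-279 and 1.78 times in the control (-1.57 after knockdown and -0.56 with YK-4-279). In both of the last pairs the order of the paralogues was reversed after knockdown. HDAC1 was 6.85 times HDAC2 after knockdown, 12.9 times with YK-4-279 and 15.1 times in the control (-1.14 after knockdown and -0.23 with YK-4-279). The remaining 3 of the 10 pairs were MTF2 against PHF1, the BMI1 locus against PCGF2, and GATAD2A against GATAD2B, at -1.75, -1.98 and -1.02 after knockdown. The change of MTF2 against PHF1 had an SE of 0.45, with about 13 fragments of PHF1 in the control. CHD4 against CHD3 was the other pair past 1 log2 unit with YK-4-279, and CHD4 was 8.44 times CHD3 after knockdown, 4.99 times with YK-4-279 and 11.6 times in the control (-0.45, SE 0.09, after knockdown and -1.21, SE 0.10, with YK-4-279). EZH2 against EZH1 stayed within 1 log2 unit, at 1.57 times after knockdown, 2.25 times with YK-4-279 and 1.79 times in the control, as did ARID1A against ARID1B and MBD3 against MBD2.

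**Figure D4:**
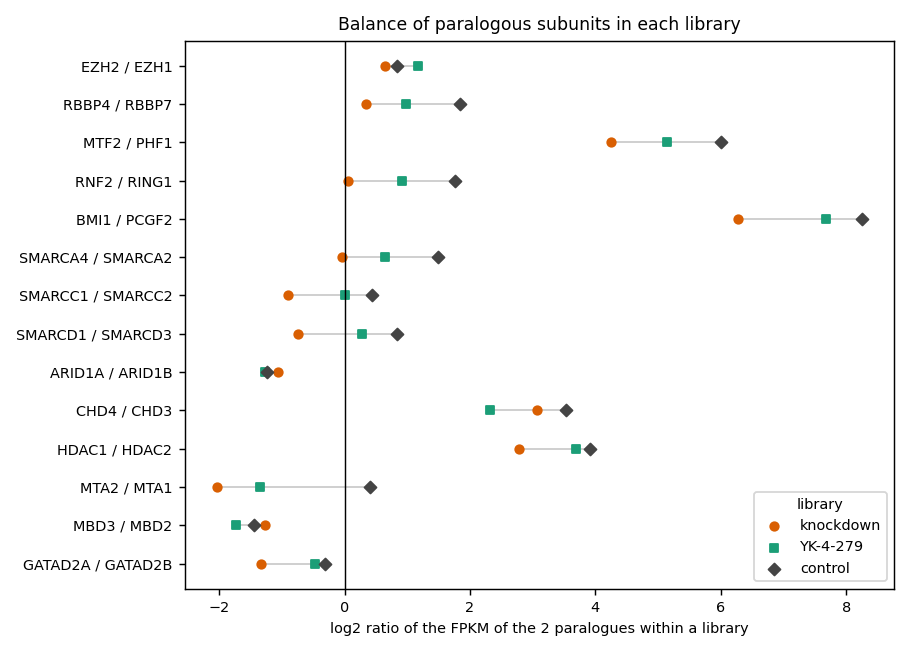
Log2 ratio of the FPKM of 2 paralogues within each library for 14 pairs, with points for the knockdown, YK-4-279 and control libraries and a line at equal abundance. The MTA2 to MTA1 ratio stood at -2.03 after knockdown, -1.34 with YK-4-279 and 0.40 in the control, and the EZH2 to EZH1 ratio at 0.65 after knockdown, 1.17 with YK-4-279 and 0.84 in the control.

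In 9 of the 10 pairs that moved after knockdown the partner that was more abundant in the control lost share, which is the direction of the trend with abundance. The correction for level starts from log2(scaled FPKM + 1), whereas the ratios above have no pseudocount. That pseudocount of 1 alone left 7 of the 14 pairs past 1 log2 unit after knockdown and 1 with YK-4-279. The values below therefore hold both changes. With each gene set against genes of like level, 3 of the 12 pairs with both genes compared differed by at least 1 after knockdown. These were MTA2 against MTA1 at -2.61, SMARCC1 against SMARCC2 at -1.32 and RBBP4 against RBBP7 at -1.12. SMARCA4 against SMARCA2 then stood at -0.80, RNF2 against RING1 at -0.98, SMARCD1 against SMARCD3 at -0.93 and GATAD2A against GATAD2B at -0.88. HDAC1 against HDAC2 stood at -0.32 and the BMI1 locus against PCGF2 at 0.01, so little or nothing of these shifts was left. CHD4 against CHD3 stood at 0.95, with its sign turned round. With YK-4-279 only MTA2 against MTA1 passed on that scale, at -1.56.

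Set directly against each other, the YK-4-279 library had 2 of the 42 members higher than the knockdown library (4.76%, against 15.3% of all compared genes) and 2 lower (4.76%, against 14.5%). ACTL6A and EED were higher, at 1.31 (SE 0.03) and 1.00 (SE 0.05). SMARCA2 and CHD4 were lower, at -1.25 (SE 0.05) and -1.17 (SE 0.03). CHD4 had 10.9 scaled FPKM with YK-4-279 and 25.8 after knockdown, and it stayed beyond the threshold at -1.51 when set against genes of like level. ACTL6A, EED and SMARCA2 then stood at 0.36, 0.38 and -0.88, while KDM1A, SMARCC2 and ARID1B passed the threshold at -1.31, -1.22 and -1.20. On that scale 4 members were lower (9.52%, against 13.4% of all genes) and 0 higher (against 9.07%). MTA1 stood at -0.59 in this comparison, with 9.11 scaled FPKM with YK-4-279 and 14.2 after knockdown.

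Other subunits of the same complexes, taken from lists of further subunits and regulators, showed values in both directions after knockdown. Of 24 further Polycomb genes, 20 were compared, 2 were higher (10.0%, against 17.3% of all compared genes) and 3 lower (15.0%, against 17.0%). PHC2, a canonical PRC1 subunit in a locus joined with MIR3605, stood at 2.05, and ASXL1, a cofactor of the H2A deubiquitinase BAP1, at 1.03. PHF19, the third Polycomb-like protein, had 9.06 scaled FPKM after knockdown, 39.1 with YK-4-279 and 33.6 in the control (-1.78 after knockdown and 0.21 with YK-4-279). L3MBTL2 and SCML2, both linked to PRC1, stood at -1.44 and -1.41. Of the further BAF genes SS18L1 was higher at 1.21 and SS18, its paralogue, lower at -1.04, among 6 compared of 12. That is 16.7% each way, against 17.3% and 17.0% of all compared genes. Of the further NuRD and CoREST genes ZNF217 was higher at 1.84 and GSE1 at 1.09, among 6 compared of 10. These 2 are 33.3% of the 6, against 17.3% of all compared genes, and 0 were lower (against 17.0%). Set against genes of like level, PHC2 at 1.87, PHF19 at -1.11 and ZNF217 at 1.30 stayed beyond the threshold, and ZMYND8 at 1.13, PHF10 at 1.09 and YAF2 at -1.03 passed it. The other genes called here came within it, with ASXL1 at 0.90, L3MBTL2 at -0.69, SCML2 at -0.96, SS18L1 at 0.68, SS18 at -0.14 and GSE1 at 0.59. On that scale 14.7% of all compared genes were higher and 9.91% lower. With YK-4-279, 0 genes of these 3 lists passed the threshold, and the lowest was L3MBTL2 at -0.99.

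Enzymes that act against Polycomb were also read. KDM6A, which removes the PRC2 mark, stood at 1.22 after knockdown and 0.17 with YK-4-279, and the H3K4 methyltransferases KMT2C and KMT2A at 1.22 and 1.01 after knockdown. KMT2D, in a locus joined with PRKAG1, stood at -1.10. Of the 11 genes on this list 6 were compared, and 3 were higher and 1 lower after knockdown. Of all compared genes 17.3% were higher and 17.0% lower. The other compared genes, ASH1L, in a locus joined with MIR555, and NSD1, were neither, at 0.36 and 0.34. Against genes of like level the 4 called genes all came within the threshold. There KDM6A stood at 0.75, KMT2C at 0.69, KMT2A at 0.59 and KMT2D at -0.29. The HOX genes, classical Polycomb targets, were mostly scarce, and 13 loci of the 39 genes passed the filter. HOXB3, HOXD11, HOXB6 and HOXD9 were higher after knockdown, at 1.499, 1.33, 1.28 and 1.26, and HOXD8 and HOXC8 were lower at -1.42 and -1.05. These are 30.8% and 15.4% of the 13 loci, against 17.3% and 17.0% of all compared genes. Against genes of like level HOXD9 came within the threshold at 0.69, and the other 5 stayed beyond it. On that scale 3 of the 13 loci were higher and 2 lower, where 14.7% and 9.91% of all genes were. HOXD11 had 21.7 scaled FPKM after knockdown, 8.45 with YK-4-279 and 8.02 in the control. Neighbouring genes of the HOXD cluster thus stood on opposite sides of the control, and with YK-4-279 the 13 loci lay between -0.53 and 0.79.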

How the data were processed

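Messenger RNA of 3 TC32 libraries was measured by RNA-seq, from cDNA made with a SMARTer kit, sheared and amplified by PCR, per the labels' protocols. FPKM for 88434 loci was deposited by the authors for each library. CASAVA 1.8.2, TopHat, Cufflinks 2.2.1 and GRCh37 (hg19) are named in the submitters' processing notes. How the libraries were scaled against each other, which annotation was used and how multiply mapped reads were handled is not stated there. The values headed dEF belong to the sample whose labels name the knockdown.

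Loci were summed by gene name. The libraries were scaled by the median ratio to the geometric mean over the 9883 compared genes above 0 in all 3, with factors of 1.44 for the knockdown, 2.12 for YK-4-279 and 0.325 for the control. This assumes that the median gene did not differ. As deposited, its log2 ratio was -1.755 after knockdown and -2.20 with YK-4-279. With 1 library per group no test was made. Members, lists and threshold were chosen with earlier results of these data known. All members are given, with full values for those past the threshold and the extremes of each complex, and of the other lists those past the threshold.

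The depth was estimated because no counts are given. The lowest values of single-transcript olfactory receptor genes under 1 kb, taken as 1 fragment each, gave 0.0166 FPKM per fragment and kilobase after knockdown, 0.0126 with YK-4-279 and 0.0634 for the control. With GENCODE 29 transcript lengths, found for 93.4% of the compared genes, this gave about 31172127, 38827941 and 51223590 fragments. These are approximate, and SE from them hold nothing of the spread between cultures. GENCODE 29 is on another build and gave lengths, GC content and names only. Promoters were matched by symbol for 41 of 47 members. The scaling was tested on simulated data. Python 3.11.15, numpy 2.4.6, pandas 2.3.3, scipy 1.17.1 and matplotlib 3.10.9 were used. Alternatives covered scaling, pseudocount, filter, joined loci and trends with level, length and GC content. The one on all named genes, the fit of level, length and GC content, and for paralogues the pseudocount of 1 and the level correction were chosen after seeing the data.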

Additional observations from a re-analysis of the deposited data

How the results depend on the processing

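No paired analysis was possible because each group has 1 library. Number of members higher, number lower and median relative log2 ratio were 5, 3 and 0.32 after knockdown, 1, 0 and 0.02 with YK-4-279, and 2, 2 and -0.23 for YK-4-279 against knockdown. On FPKM as deposited they were 0, 32 and -1.40, then 0, 40 and -2.155, then 0, 9 and -0.53, where 71.4%, 92.2% and 21.5% of all compared genes were lower and their medians were -1.755, -2.20 and -0.37. There RING1, SMARCD3 and KDM1A stood at -0.36, -0.00433 and -0.56 after knockdown and MTA1 at -1.004 with YK-4-279, all with the sign turned round, by the overall scale of the libraries. Centring the deposited ratios gave 8 higher and 8 lower after knockdown, 6 and 2 with YK-4-279, and 1 higher than the knockdown, where 22.2%, 23.6%, 12.3%, 4.49% and 11.3% of all genes were so called. Upper quartile scaling moved the medians with YK-4-279 to 0.20 against control and -0.0238 against knockdown, and both medians of all genes to 0.20. In the last comparison 1 member was lower, where 11.0% of all genes were. With a pseudocount of 0.1, 9 were higher after knockdown (median 0.48), 2 were higher with YK-4-279, and 5 were lower with YK-4-279 than after knockdown, where 24.3%, 6.33% and 20.7% of all genes were so called. At a mean FPKM of at least 5, 2 were higher after knockdown, where 11.2% of all genes were. With YK-4-279, 1 was lower than after knockdown, where 11.1% of all genes were. The medians in that setting were -0.11, -0.17 and 0.0133 (all genes -0.47, -0.06 and 0.35). Scaling on all named genes above 0 gave 2 higher, 12 lower and -0.12 after knockdown, 0, 3 and -0.41 with YK-4-279, and a median of -0.12 between them. All genes moved there too, with 9.17% higher, 33.8% lower and -0.50 after knockdown, 1.56%, 8.18% and -0.38 with YK-4-279, and 0.09 between them. Corrected for mean level, 0 were lower and the median was 0.17 after knockdown, and 0 were higher and 4 lower with YK-4-279 than after knockdown. Of all genes 9.91%, 9.07% and 13.4% were so called. Corrected for level, length and GC content, 1 was lower and the median was -0.0793 after knockdown, where 12.2% of all genes were lower. For YK-4-279 against knockdown, 0 were higher, 1 lower and the median -0.0204, where 9.81% and 11.6% of all genes were so called. The causes were not tested. MTA1 was higher after knockdown in all 10 relative settings, between 1.32 and 2.15, and with YK-4-279 in 9 of 10, between 0.87 and 1.51. SMARCA2 was higher after knockdown in all 9 that measured it, between 1.14 and 2.33, and KDM1A in 8 of 9, between 0.83 and 1.91. ACTL6A, EED and HDAC1 were lower in 8 of 10 each, between -2.35 and -0.70, -1.865 and -0.46, and -1.66 and -0.009. All 3 came within the threshold wherever level was corrected for. The settings that changed only the filter or the joined names repeat the main value of a gene, so these tallies are not independent checks. The pairs of paralogues past 1 log2 unit were 10 and 2 for knockdown and YK-4-279. They were 9 and 2 with a pseudocount of 0.1, 7 and 1 with a pseudocount of 1, and 8 and 1 without joined names. Corrected for mean level, which also used the pseudocount of 1, they were 3 after knockdown and 1 with YK-4-279. That count covers the 12 pairs with both genes compared. Depth limits CBX7 and PHF1, with about 6 and 13 fragments in the control.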
